A study of Arabidopsis thaliana with 4 samples.

Results

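The transcripts described here are those whose signal was lowest in leaves deprived of nitrate. They were chosen on the measured values, as probe sets whose signal on the nitrate-depleted array was at most 2/3 of the signal on each of the other 3 arrays, with signals under 25 set to 25. Probe sets whose signal differed 2-fold or more between the potassium-depleted and the full-nutrient array were left out, as were 4 genes by name (AT2G43590, AT2G43620, AT4G16260 and AT1G75280). Before these exclusions 72 of 8247 probe sets were lowest on the nitrate array (0.873%), and 49 remained after them (0.594%). Of the 49, 14 stand for 1 annotated gene each, 1 for several genes, and 34 had no gene in the annotation used here. Every ratio to the nitrate array below is therefore a description of how the members were chosen, without a test.

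The arrays were single-colour Affymetrix arrays of total RNA from rosette leaves of the Col-5 ecotype of Arabidopsis thaliana, with 1 array in each of 4 groups. Plants grew on agar medium with sucrose in 16 h days for 21 days and then in hydroponics under constant light, at 24 °C and 80% humidity, and leaves were taken 28 h after the nutrient was withdrawn. The full nutrient solution held 0.25 mM KH2PO4 and 0.5 mM KOH besides magnesium, calcium and micronutrient salts. The nitrate-free solution lacked Ca(NO3)2 and held 4 mM extra calcium sulphate, the phosphate-free solution lacked KH2PO4 and held 0.125 mM extra K2SO4, and the potassium-free solution lacked KH2PO4 and KOH and held 0.27 mM extra Ca(H2PO4)2. The recipe given for the full solution names no nitrate salt, so the nitrate supply of the reference plants is uncertain. Sulphate and nitrate differed together between the nitrate-free solution and the full one, and their parts cannot be told apart. The number of plants behind each RNA sample is not given in the sources used here.

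Nitrate is taken up by roots, moves to the shoot in the xylem, and is stored in vacuoles or reduced to nitrite and ammonium before glutamine synthetase fixes it. It is also a signal: NLP transcription factors act on genes of nitrate transport and reduction when nitrate is supplied, and many of these transcripts fall when it is withdrawn. None of the 19 genes listed for nitrate uptake and reduction, the 20 for nitrate response, the 22 for ammonium and amino acid assimilation or the 6 for organic acid supply was named by the probe annotation, so these transcripts are not analysed here.

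The arrays differed little as a whole. Between 47.6% and 49.6% of probe sets reached the floor of 25, and the mean after trimming 2% at each end lay between 100.1 and 100.2. Scanner cells were masked on the full-nutrient array (312) and on no other array, and its outlier cells numbered 183 against 9 to 50, per the labels. Photosynthesis transcripts marked the tissue as leaf, LHCB4.1 of the light-harvesting antenna having signals of 7161.5 with full nutrients and 7096.1 without nitrate. BGLU21, the single root marker named, was at 1.7, 0.8 and 5.3 with full nutrients, without nitrate and without phosphate, and at 377.2 without potassium. The flower marker AT5G07230 stayed between 4.3 and 17.4, and markers of guard cells, trichomes, phloem, epidermis and dividing cells were not named. In whole leaves, fewer cells of a type and less RNA per cell cannot be told apart.

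With 1 array a group there is no replicate error, so the number of members was set beside the same count for the other arrays. Within the 7802 probe sets left by both exclusions, the 49 members made up 0.628%. In the opposite direction, 71 probe sets (0.91%) were at least 1.5-fold higher on the nitrate array than on each other array. The phosphate array was lowest by the same margin for 35 probe sets (0.449%), the potassium array for 115 (1.47%) and the full-nutrient array for 13 (0.167%). The potassium exclusion itself lowers the counts of the potassium, full-nutrient and nitrate arrays. Over all 8247 probe sets, without either exclusion, the nitrate array was lowest for 72 and highest for 77 (0.934%), and the full-nutrient array was lowest for 47 (0.57%), the phosphate array for 37 (0.449%) and the potassium array for 192 (2.33%). Transcripts lowest without nitrate were thus fewer than those highest without nitrate in both counts, and whether either count exceeds array noise was not tested.

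**Figure D1:**
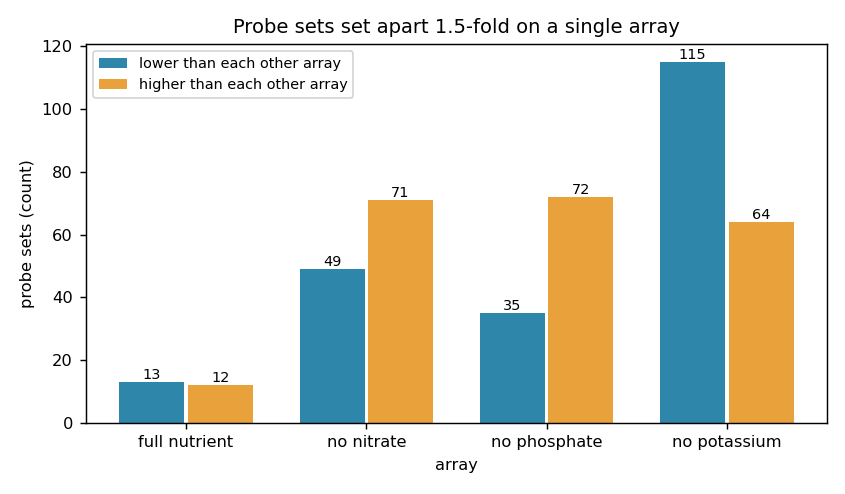
Number of probe sets that were at least 1.5-fold lower (blue) or higher (orange) on 1 array than on each of the other 3, among probe sets whose potassium signal lay within 2-fold of full nutrients. The nitrate array was lowest for 49 and highest for 71 probe sets, and the potassium array was lowest for 115.

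Most members lay close to the limit. The gap to the next lowest array had a median of 1.70-fold and ran from 1.50-fold to 3.11-fold. In 9 of the 49 members the nitrate signal was at most 0.5 of each other signal, and in 2 of these it was below 1/3. Against the full-nutrient array alone, 17 members were at least 2-fold lower (0.57% of all probe sets were), with a median log2 ratio of -0.89. The next lowest array was the full-nutrient one in 30 members, the phosphate one in 10 and the potassium one in 9, a split not counted over other probe sets. For 48 genes with more than 1 probe set bright enough to meet the rule, the probe sets of a gene differed by a median of 1.18-fold in their ratio of nitrate to full nutrients, and 1 of the 48 differed by 1.5-fold or more. That spread covers probe sets on the same arrays and says nothing of differences between plants.

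**Figure D2:**
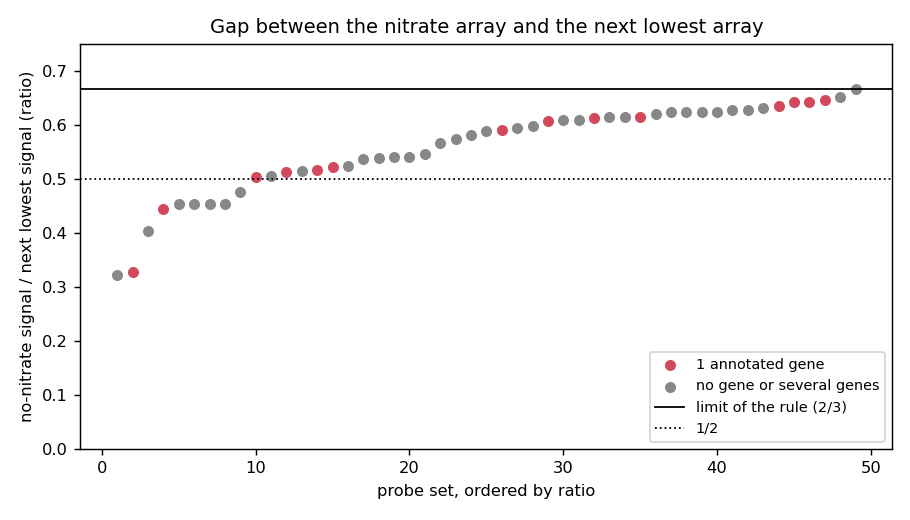
Signal on the nitrate-depleted array divided by the signal on the next lowest array (ratio, linear axis) for the 49 probe sets in order, with red points for those of 1 annotated gene. The lines mark the limit of 2/3 and a ratio of 1/2, below which 9 probe sets lie.

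The named transcript set farthest apart was AT4G32480, a gene of a family of unknown function. Its signal was 94.5 with full nutrients, 31.0 without nitrate, 268.9 without phosphate and 100.4 without potassium. The nitrate signal was 3.05-fold below full nutrients and 8.67-fold below the phosphate array, which was the brightest of the 4. Full nutrients and potassium removal gave nearly the same signal, and the nitrate value lay just above the floor.

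The other named members follow in the order of their known roles, an order set after their values were seen. By words in their gene names, 1 of the 14 (7.14%) was classed as an oxidoreductase (MSRB5), against 1.29% of all probe sets of 1 gene. Likewise 1 was classed as a transferase (GSTF3), against 1.11%, and no class was shown to be in excess. The words reached only 6.4% of all probe sets of 1 gene. They missed the oxidase-family gene AT4G20820 and the peroxidase gene AT2G18150, so these counts do not measure class content. AT4G20820, of the berberine bridge enzyme-like family of FAD-linked oxidases, had signals of 188.8, 83.9, 224.3 and 209.0 with full nutrients and without nitrate, phosphate and potassium, 2.25-fold lower without nitrate than with full nutrients. The other 3 arrays lay close together for this probe set. Its gene has 3 further probe sets, all below the floor on each array (0.3 to 12.1), so the difference rests on 1 of 4 probe sets. MSRB5, which encodes a methionine sulphoxide reductase that repairs oxidised methionine, had signals of 350.3, 178.0, 344.5 and 387.6 in the same order. Its nitrate signal was 1.94-fold below the phosphate signal, the next lowest, and the remaining 3 values differed by little among themselves.

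GSTF3 encodes a glutathione S-transferase of the phi class, enzymes that attach glutathione to reactive compounds. It was the brightest named member with full nutrients, at 1539.8, against 723.4 without nitrate, 1191.2 without phosphate and 1337.3 without potassium. The nitrate signal was 2.13-fold below full nutrients and 1.65-fold below the phosphate array. The _f_at ending of its probe set marks probes shared by a gene family, and signal from near-identical glutathione transferase genes cannot be separated from that of GSTF3.

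AT2G30540 belongs to the plant-specific CC-type glutaredoxins, a class with members that act in nitrogen signalling between root and shoot. Its signals were 79.7 with full nutrients, 47.8 without nitrate, 161.2 without phosphate and 77.9 without potassium. As for AT4G32480, the full-nutrient and potassium values were nearly equal, the phosphate value was the highest (2.02-fold above full nutrients) and the nitrate value the lowest, here 1.63-fold below the potassium array. The class III peroxidase gene AT2G18150, of a family that oxidises substrates in the cell wall, had signals of 59.0, 48.8 and 51.4 with full nutrients and without phosphate and potassium. Without nitrate it was at 17.1, under the floor, at least 1.95-fold below the next lowest array.

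Dimmer signals were seen for 3 genes whose products bind RNA or serve translation. AT2G18740, which encodes the core spliceosomal protein SmE, had signals of 54.2 with full nutrients, 32.0 without nitrate, 54.8 without phosphate and 60.5 without potassium. AT2G34160, of the Alba family of nucleic acid-binding proteins, had signals of 55.7, 35.4, 68.5 and 75.9 in that order. The elongation factor Tu family gene AT4G02930 had signals of 83.2, 44.8, 69.3 and 84.6. The nitrate value was the lowest of 4 in each, by 1.69-fold for AT2G18740, 1.57-fold for AT2G34160 and 1.55-fold for AT4G02930, and the other 3 arrays differed by less than these factors from each other.

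Among the remaining named members, AT2G42360 encodes a RING-finger protein of the ATL family of ubiquitin ligases and AT2G22510 a hydroxyproline-rich glycoprotein, a kind of cell wall protein. AT2G42360 had signals of 62.5, 40.1, 83.3 and 93.0 with full nutrients and without nitrate, phosphate and potassium. AT2G22510 was at 47.8, 70.4 and 66.5 with full nutrients and without phosphate and potassium, and at 20.0, under the floor, without nitrate, at least 1.91-fold below full nutrients. Both were brighter on the phosphate and potassium arrays than with full nutrients, by 1.33- to 1.49-fold.

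No role is given here for the last 3 named genes. AT1G65500 was bright, with signals of 1096.5 with full nutrients, 553.0 without nitrate, 1469.2 without phosphate and 1809.9 without potassium, so that its nitrate value was 1.98-fold below full nutrients and its potassium value the highest. AT1G49470 had signals of 182.6, 107.4, 221.3 and 167.1 in the same order. AT4G00295 had 75.4, 46.4, 135.3 and 94.2. The phosphate array was the brightest for both of these, as it was for AT4G32480, AT4G20820, AT2G22510 and AT2G30540.

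**Figure D3:**
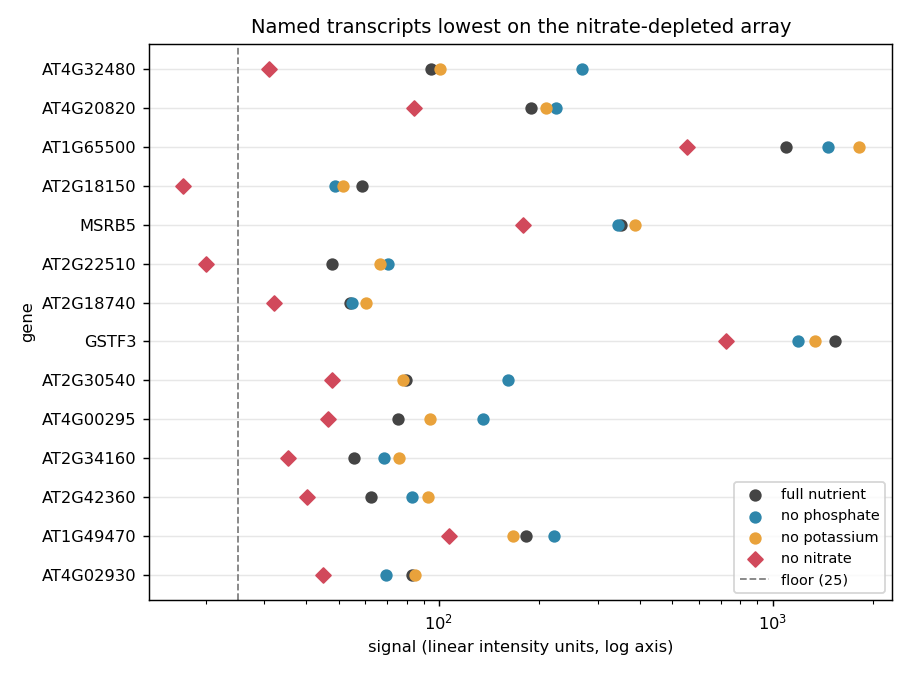
Signal (linear intensity units on a log axis) of the 14 named members on the 4 arrays, 1 point per array, ordered from the widest gap at the top to the narrowest at the bottom. The nitrate array (red diamonds) is lowest for each gene by construction, and lies below the floor of 25 (dashed line) for AT2G18150 and AT2G22510.

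The 34 members with no annotated gene included the widest gap and the brightest signals. Probe set 14609_at had signals of 109.8 with full nutrients, 35.3 without nitrate, 219.2 without phosphate and 180.9 without potassium, 3.11-fold below full nutrients. Probe set 17567_at had 1297.7, 382.1, 3171.5 and 948.3, with the phosphate signal 8.30-fold above the nitrate signal. Probe set 12521_at had 2109.1, 658.5, 1530.0 and 1454.2. The first 2 were brightest without phosphate, whereas 12521_at was brightest with full nutrients, so the members did not share 1 pattern on the other arrays. The brightest on the nitrate array was 13212_s_at, at 1314.3 against 3021.8 with full nutrients. Over all 49, the nitrate signal had a median of 108.5 and ran from 9.4, under the floor, to 1314.3, and 3 members were under the floor. With full nutrients the median was 188.8, and 19 members were at 100 or less.

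Members were next compared on the arrays other than the nitrate one. The phosphate array was the highest of the 4 in 22 members, the potassium array in 18 and the full-nutrient array in 9. The same split was not counted over all probe sets, so it describes the members only. The log2 ratio of phosphate to full nutrients had a median of 0.37 over the members, against 0.00 over all probe sets and -0.04 over the 2740 probe sets that could have met the rule, which needs signals of at least 37.5 on the other 3 arrays. That of potassium to full nutrients had a median of 0.23, against 0.00 and -0.05. At least 1.5-fold more signal without phosphate than with full nutrients was seen in 15 members (30.6%), where the share was 6.46% of the 2740 and 5.09% of all probe sets, and at least 1.5-fold less in 1 member, where it was 5.44% and 3.43%. For potassium, 10 members (20.4%) were 1.5-fold higher, against 7.45% and 7.53%, and 0 were 1.5-fold lower, against 12.2% and 6.83%.

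The phosphate median depended on the rule, which requires the phosphate signal to exceed the nitrate signal. Without the phosphate array in the rule, 70 probe sets met it. Their median log2 ratio of phosphate to full nutrients was 0.0063, against 0.37 for the members and 0.00 over all probe sets. Of the 70, 15 (21.4%) were 1.5-fold higher without phosphate and 12 (17.1%) 1.5-fold lower, against 5.09% and 3.43% of all probe sets. At least 2-fold higher were 9 (12.9%), against 1.86%. The potassium signal entered the rule both as a comparison and through the 2-fold exclusion. With the comparison dropped and the exclusion kept, 72 probe sets met the rule and the median log2 ratio of potassium to full nutrients was -0.045. With the exclusion dropped and the comparison kept, 67 met it and the median was 0.46. With both dropped, an alternative added after the data were seen, 92 met it and the median was 0.15. Of the 92, 28 (30.4%) were 1.5-fold higher and 12 (13.0%) 1.5-fold lower without potassium, against 7.53% and 6.83% of all probe sets. The sign of the potassium ratio thus depended on how potassium entered the rule. The medians of the 49 members therefore do not by themselves show higher levels without phosphate or potassium.

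The phosphate signal was at least 2-fold above full nutrients in 9 members (18.4%, against 1.39% of the 2740 and 1.86% of all probe sets), on values that the rule also used. AT4G32480, at 2.85-fold, and AT2G30540, at 2.02-fold, were the named ones, and 17423_s_at (225.9 with full nutrients and 604.6 without phosphate) and 17567_at were among the 7 unnamed. On these probe sets the full-nutrient signal lay between the nitrate and the phosphate signal, as the rule and the 2-fold cut require. At the other end, 12830_f_at had signals of 475.0, 154.3, 268.9 and 652.4 with full nutrients and without nitrate, phosphate and potassium, the single member 1.5-fold lower without phosphate than with full nutrients. In 26 members (53.1%) the other 3 arrays lay within 1.5-fold of each other, which held for 68.5% of the 2740.

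**Figure D4:**
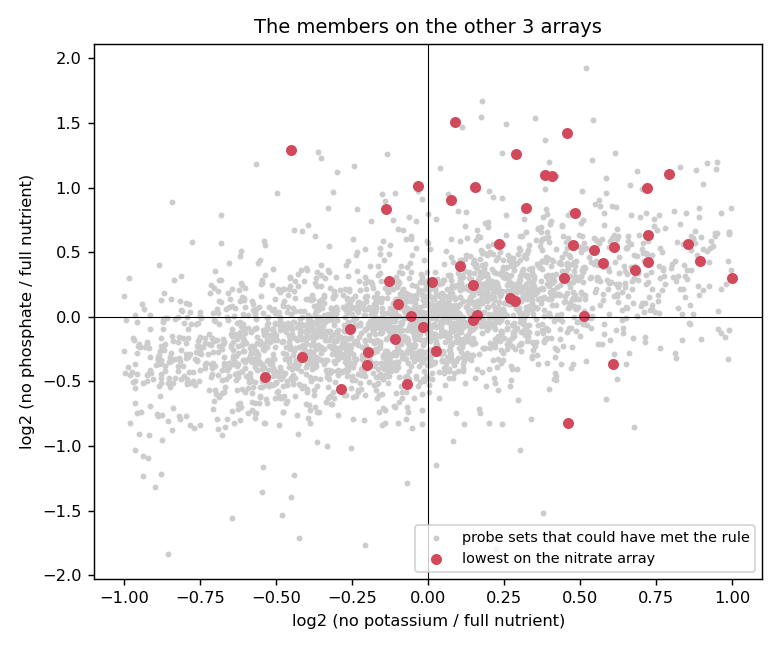
Log2 ratio of the phosphate-depleted to the full-nutrient signal against that of the potassium-depleted to the full-nutrient signal, with the 49 members in red over the 2740 probe sets that could have met the rule in grey. Both axes share the full-nutrient array, and 9 members lie at or above a phosphate ratio of 1 on the log2 scale.

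The make-up of the members by probe set type and annotation was set beside that of all probe sets, without a test. Most members, 27 of 49, had the plain _at ending. Probe sets with an ending other than the plain _at, which marks probes that can match more than 1 transcript or a set built under relaxed rules, made up 22 of the 49 members (44.9%), against 32.3% of the 2740 and 24.3% of all probe sets. No annotated gene was given for 69.4% of members, against 59.4% and 53.1%. Of the 14 named genes, 7 lie on chromosome 2, 5 on chromosome 4 and 2 on chromosome 1, and these chromosomes hold 36.9%, 31.7% and 22.1% of the probe sets of 1 gene. No 2 of the 14 are neighbours among protein-coding genes in the gene table.

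The listed genes that the annotation named held 0 members, where the rule kept 0.594% of all probe sets and 1.79% of the 2740. So few genes cannot set a count of 0 apart from those shares. The named list genes were 3 of sulphate assimilation, 9 of photosynthesis and carbon fixation and 1 of salicylate and defence (CML41). A further 2 were of touch and early stress, 1 of the clock and 2 of senescence. The rule could not keep the 2 senescence genes or WRKY53 of the touch list, whose probe sets were too dim. Of the 4 clock probe sets, 1 was bright enough. The potassium exclusion barred both STZ probe sets of the touch list (90.5 and 171.1 with full nutrients, 355.7 and 448.2 without potassium). It also barred CML41, a PSBW probe set (5535.4 against 2664.0) and another of the photosynthesis list (6514.9 against 3226.8). The touch, defence and senescence lists thus held no probe set that the rule could keep. For the dim and the barred probe sets, absence from the members was fixed in advance. Of the 18 genes listed for sulphate assimilation, 3 were named. APS3, an ATP sulphurylase gene, had signals of 448.8, 469.6, 463.4 and 449.3 with full nutrients and without nitrate, phosphate and potassium. The sulphite reductase gene SIR had 435.7, 400.7, 482.2 and 547.2. A second ATP sulphurylase gene, APS4, had 76.2, 91.2, 66.2 and 64.6, brightest without nitrate. None of the 3 was 1.5-fold lower or higher on the nitrate array than on each other array. The nitrate-free and phosphate-free solutions both held extra sulphate, and whether sulphate affected these or other transcripts was not tested. The photosynthesis probe sets had a median log2 ratio of nitrate to full nutrients of 0.04 over 12 probe sets, against 0.00 over all probe sets.

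At the limit, the members just inside were AT4G02930 (ratio to the next lowest array 0.65), 16611_at (0.65) and 17564_s_at (0.67). The named genes just outside were PS2 (AT2G29900), with signals of 61.3, 41.0, 71.9 and 65.0 and a ratio of 0.669, CCT1 (AT2G32260) at 0.684 and AT3G44400 at 0.693. CML41, a calmodulin-like gene, was the single named gene of the salicylate and defence list. Its signals were 1089.8 with full nutrients, 210.3 without nitrate, 300.5 without phosphate and 315.7 without potassium, with a ratio of 0.70. The potassium exclusion left it out whatever its nitrate ratio, so it was not a near miss of the limit. Apart from CML41, the probe sets just inside and just outside show that membership divides a continuous range of ratios.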

How the data were processed

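The intensity values, on a linear scale, are those the authors deposited, with 1 signal per probe set for each of 4 biotin-labelled Affymetrix arrays. Equal trimmed means show a common scaling, and the algorithm is not given in the sources used here. Groups follow the source names and treatment texts in the labels; the title of the phosphate array has other letters than its source name, which matches the treatment text and was used. The 8297 probe sets include 50 Affymetrix controls, which were not used. Signals under 25 were set to 25 and ratios taken without further scaling; a ratio with the nitrate signal at the floor is a bound. Genes come from the platform annotation, which gave 1 gene for 3794 probe sets; 3784 of these matched the gene table of TAIR10.1. With 1 array per group no test was possible and none was made, and the number of arrays limits the precision. Named genes are all members with 1 annotated gene, the 3 members just inside the limit, the 3 single-gene probe sets just outside it, and list genes; the unnamed probe sets and CML41 were chosen after their values were seen. The members and lists were chosen with earlier results of these data known. Calculations used Python 3.11.15 and pandas 2.3.3, with loess from statsmodels 0.14.6. The code of the selection was run on simulated signals with planted members and little noise, which checks the code and not the noise of these arrays. Promoter motifs and annotation classes were planned; motifs were not analysed here, and 2 of the 14 named genes (MSRB5 and GSTF3) had a class word in their names, against 6.4% of all single-gene probe sets. Alternatives were another floor, a pseudocount, other normalizations, a stricter limit, subsets of probe sets and fewer comparison arrays.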

Additional observations from a re-analysis of the deposited data

How the results depend on the processing

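No paired analysis was possible because each group holds 1 array. The size of the set depended on low signals and on the arrays compared. In place of 49 lowest and 71 highest probe sets on the nitrate array, a floor of 10 gave 98 and 117, a limit of 0.5 in place of 2/3 gave 9 and 12, and leaving out the full-nutrient array gave 152 and 185. A pseudocount of 25 gave 42 highest, and leaving out the phosphate array 115 highest. Plain _at probe sets held 27 lowest, and those of 1 gene 14 lowest and 23 highest. Quantile normalization and loess centring each kept 47 of the 49 members, among 48 and 56 probe sets. The median log2 ratio of phosphate to full nutrients, 0.37 as reported, was 0.12 with a floor of 10, 1.00 with the limit of 0.5 and 0.0063 without the phosphate array; that of potassium to full nutrients, 0.23, was 0.54 without the full-nutrient array, turned to -0.045 without the potassium comparison but with the potassium exclusion, was 0.46 without the exclusion, and 0.15 without both, where 92 probe sets were lowest (added after the data were seen). The median log2 ratio of nitrate to full nutrients was -1.17 with the limit of 0.5 and -0.43 without the full-nutrient array, in place of -0.89. That of nitrate to phosphate was -2.24 with the limit of 0.5, -0.87 without the full-nutrient array and -0.95 without the phosphate array, in place of -1.22. Fewer comparison arrays or a stricter limit change these values by construction, and for the floor of 10 the cause was not tested. Of the 14 named genes, AT4G32480 and AT4G20820 stayed in under each alternative that included their probe set; 6 fell out with a floor of 50, 7 with the pseudocount and 12 with the limit of 0.5. Dim members, such as AT2G18740 at 32.0 without nitrate, rest on signals near the floor.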

Other observations

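The potassium exclusion removed 20 of the 72 probe sets that were lowest on the nitrate array, and 19 of the 20 were at least 2-fold higher without potassium than with full nutrients (3.65% of all probe sets were). Since the rule already required the potassium signal to exceed the nitrate signal, this share is a description only. Among the named ones, picked here after their values were seen, BGLU28, a beta-glucosidase gene, had signals of 40.8 with full nutrients, 3.4 (under the floor) without nitrate, 77.4 without phosphate and 633.8 without potassium. CHI (AT2G43570), a chitinase family gene, had 361.9, 222.1, 620.8 and 1122.5, and the glycosyltransferase gene UGT87A2 157.5, 104.5, 196.2 and 369.0. The peroxidase genes AT5G64120 and AT4G37520 were at 81.5 and 109.2 without nitrate, against 136.1 and 178.1 with full nutrients and 387.5 and 456.1 without potassium. In these 5 genes nitrate was lowest, then full nutrients, phosphate and potassium. The selection fixed this order except for the place of phosphate, which differed in other probe sets of the 20. For 17008_at the signal was 383.1 without phosphate and 206.1 without potassium. For 15141_s_at it was 497.9 without phosphate and 672.0 with full nutrients. The probe set among the 20 that was not higher without potassium belonged to AT2G43590 and was brightest with full nutrients.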
